A study of Homo sapiens with 2 samples.

Results

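The genes described here encode 9 enzymes that make or exchange amino acids: asparagine synthetase (ASNS), glutamine synthetase (GLUL), the mitochondrial alanine aminotransferase (GPT2), 2 enzymes of proline synthesis (ALDH18A1 and PYCR1), the 2 enzymes of transsulfuration (CBS and CTH), the cytosolic branched-chain aminotransferase (BCAT1) and argininosuccinate synthase (ASS1). They were picked by gene name from the 50868 genes of the expression table, and all 9 were found. The names were chosen from earlier results of the same comparison, in which serine synthesis and ATF4 target genes, ASNS among them, had higher read counts, so the values below are a description and carry no test. RNA-seq was performed on MOLM-13, a human AML cell line with a KMT2A::MLLT3 fusion, grown in RPMI medium with fetal bovine serum and antibiotics. There was 1 library from cells that received the Vector control (Vector) and 1 library labelled over-expression of UNC5B (OE-UNC5B). According to the methods, UNC5B was delivered by a lentiviral plasmid with a CMV promoter, a FLAG tag, mCherry and a puromycin resistance gene, and infected cells were selected with puromycin. With 1 library per group there is no replicate error for any value, and the intervals given below cover counting error of the reads only.

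Cells that are short of an amino acid, or under other stress, phosphorylate the translation factor eIF2 through kinases such as GCN2 (EIF2AK4). Translation of the transcription factor ATF4 then increases, and ATF4 binds with partners of the C/EBP family to composite C/EBP-ATF elements at genes for amino acid synthesis and uptake. ASNS is a classical example of such a gene. Asparagine supply has a particular place in acute leukemia, since asparaginase is used to treat lymphoblastic leukemia, and BCAT1 has been studied in AML for its part in branched-chain amino acid and glutamate metabolism.

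The libraries held 13715566 counted reads in Vector against 15637137 in the OE-UNC5B-labelled library. UNC5B, the targeted gene, had 0 reads in both, which allows up to 3 reads, or 0.219 CPM in Vector and 0.192 CPM in the other library by library totals without TMM scaling, so the overexpression is not visible here and every direction rests on the label. Of the myeloid markers, CD33, FLT3, SPI1, CEBPA and CSF3R had between 1775 and 7626 reads in each library, whereas ANPEP and CD14 had at most 5. LYZ and MPO, a lysozyme and a granule peroxidase, were more than 2-fold lower in the OE-UNC5B-labelled library, with log2 fold changes of -1.36 and -1.35. The other 7 myeloid markers with 10 or more reads in sum lay within 2-fold, from -0.23 for SPI1 to 0.73 for PTPRC, which had 1592 and 3102 reads. Epithelial markers, looked at because HEK293T cells packaged the virus, had 5 reads in Vector and 2 in the other library in all, and 7 fibroblast markers had 142 and 18 reads in all, most of the 142 from COL3A1. The endothelial markers other than PECAM1 had at most 2 reads each. The part of these differences in the enzyme values was not tested, and in bulk RNA fewer cells of a type and less RNA per cell cannot be told apart.

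Of the 9 enzyme genes, 6 were past 2-fold on the higher side in the OE-UNC5B-labelled library after TMM scaling, and 0 were at least 2-fold lower. They were CTH, ASNS, CBS, GPT2, ASS1 and BCAT1. PYCR1 was higher by less than 2-fold, and GLUL and ALDH18A1 were close to their level in Vector. Of all genes whose reads in both libraries added up to 10 or more (15384), 5.15% were at least 2-fold higher and 4.79% at least 2-fold lower, and since the names were chosen from this comparison nothing is read from the difference between these shares and the members' count. The median log2 fold change was 1.22 over the 9 enzymes and -0.01 over all 15384 genes. Together the 9 genes held 12124 reads in Vector, or 0.0884% of the library, and 26518 reads, or 0.17%, in the OE-UNC5B-labelled library. ASS1 gave 26.6% of these reads in Vector and 33.4% in the other library, and GLUL gave 29.7% and 14.5%.

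**Figure D1:**
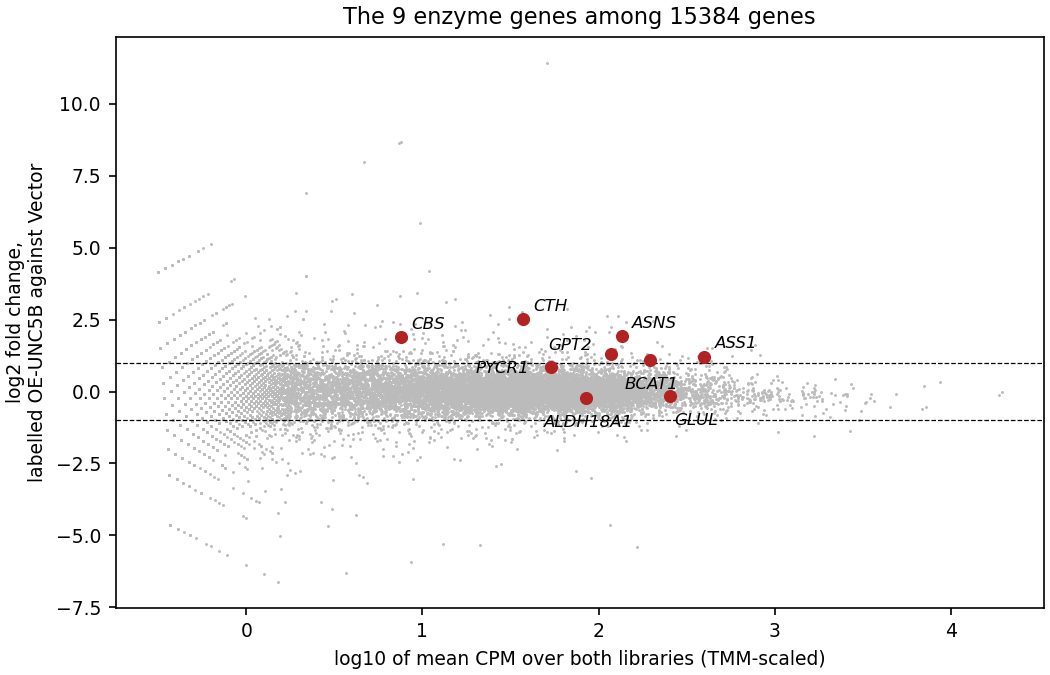
Log2 fold change of each gene (vertical axis, library labelled OE-UNC5B against Vector) against the log10 of its mean CPM over both libraries (horizontal axis). Grey points are the 15384 genes with at least 10 reads, red points the 9 enzyme genes, and dashed lines mark 2-fold; CTH, ASNS, CBS, GPT2, ASS1 and BCAT1 lie above the upper line, and GLUL, ALDH18A1 and PYCR1 between the lines.

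The enzymes differed widely in abundance. Levels are compared between genes as RPKM, that is reads scaled to the library size with TMM and to each kilobase of the canonical transcript in GENCODE 44. The deposited FPKM values rest on another length, which was inferred from reads and FPKM and is not stated by the authors. At the median gene it equalled the summed length of all distinct annotated exons, and it was 2.33 times the canonical transcript for the median gene. In Vector the highest level was that of ASS1 (156 RPKM) and the lowest that of CBS (1.28), a 122-fold range. Between them lay GLUL (35.3), ALDH18A1 (27.3), ASNS (23.8), GPT2 (16.9), PYCR1 (16.8), BCAT1 (13.3) and CTH (5.25). GPT2 and PYCR1 could not be put in order within their counting error. In the OE-UNC5B-labelled library the range from ASS1 (363) to CBS (4.77) was 76.2-fold. ASNS moved from the fourth to the second place with a level of 89.7, followed by GPT2 (42.0), while ALDH18A1 (23.3) moved from the third to the eighth. GLUL (32.1), PYCR1 (30.5) and CTH (30.2) had overlapping counting intervals there, as did PYCR1, CTH and BCAT1 (28.5). The places depend on the length used. By deposited FPKM in the same library, ASNS (22.4) was again below ASS1 (125.9) only. CTH (17.4) and ALDH18A1 (15.6) were then above GPT2 (14.45).

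**Figure D2:**
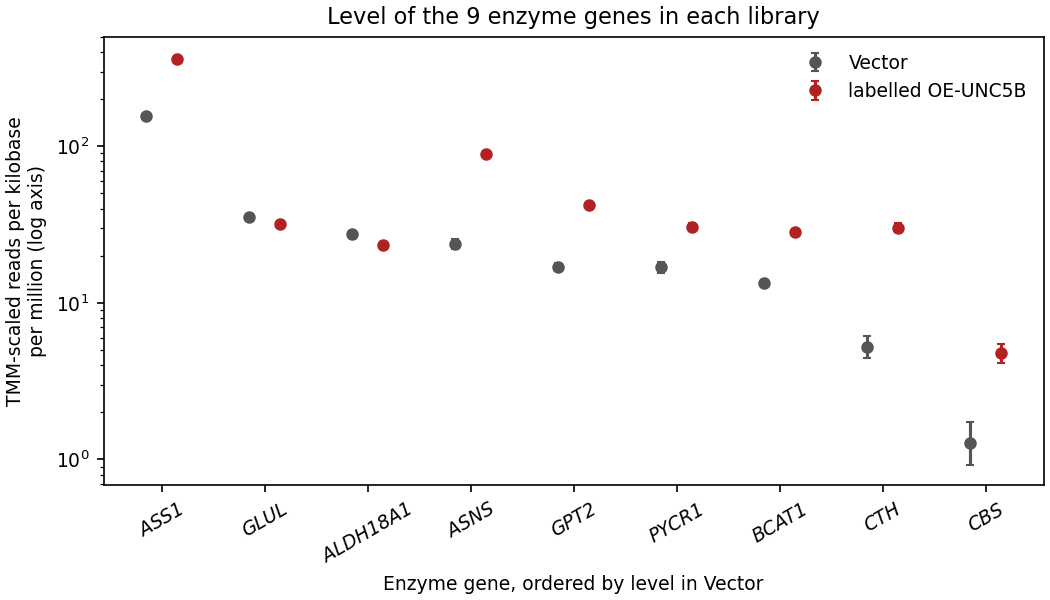
Level of each of the 9 enzyme genes in the 2 libraries, as TMM-scaled RPKM over the canonical transcript, on a log axis. Grey points are Vector, red points the OE-UNC5B-labelled library, and bars are exact 95% Poisson intervals of the reads, in places smaller than the point; the red point lies above the grey point for 7 genes and slightly below it for GLUL and ALDH18A1.

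ASNS, which makes asparagine from aspartate with glutamine as the nitrogen donor, is encoded in GRCh38 on the minus strand of chromosome 7 (97852118 to 97872542), and its canonical transcript has 13 exons. It had 766 reads in Vector against 3400 in the OE-UNC5B-labelled library. The log2 fold change was 1.91 (95% interval 1.80 to 2.03), which ranked 170 from the top among the 15384 genes. ASNSD1, a gene with an asparagine synthetase-like domain, had 425 reads in Vector and 255 in the other library, with a log2 fold change of -0.97 (-1.20 to -0.75). The aspartate aminotransferases GOT1 and GOT2, which supply the aspartate, had log2 fold changes of -0.03 and -0.33. The asparaginase ASRGL1 had 127 and 110 reads, and ASPG, another asparaginase, had 0 in both libraries. Of the 4 genes of this list with enough reads (10 or more in sum), besides ASNS, 0 were past 2-fold in either direction. The genes outside all lists whose log2 fold change was nearest to that of ASNS, among those reaching 10 CPM, were TMEM33 (1.93), APOLD1 (1.90) and TUBE1 (1.88), a likeness over 2 libraries only.

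Sequence near the start of the ASNS gene is shown because it holds the kind of element through which amino acid supply is known to act on this gene. The letters TGATGNAA (N is any base), the core of the C/EBP-ATF element, were searched on both strands in RefSeq promoter windows of GRCh38.p14, each of 300 bases from 250 before to 50 after an annotated start. Windows were given for 7 of the 9 enzymes, 16 in all, and not for GPT2 and PYCR1. The letters were found in 2 of the 16 windows, 1 of the 2 windows of ASNS and 1 of the 5 of BCAT1, and in 3.62% of the 35116 windows of all genes. Counted by gene, 2 of the 7 enzymes and 4.46% of the 27305 genes with a window held them in at least 1 window. In both enzymes the match lay on the sense strand, with its first base 68 bases before that window's start site in ASNS and 48 bases before it in BCAT1. Of the 10 regulators of the amino acid response with a window, 2 held a match: CEBPG, which encodes a C/EBP partner of ATF4, on the sense strand 42 bases before a start, and ATF3 191 bases before one. The windows of TRIB3, CEBPB, ATF4, ATF5 and DDIT3 held none. In the following stretches of 60 bases, from chr7:97872439-97872498 (minus strand), chr12:24949112-24949171 (minus strand) and chr19:33374049-33374108 (plus strand), the match is in capitals.
ASNS: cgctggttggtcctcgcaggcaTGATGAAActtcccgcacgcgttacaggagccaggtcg
BCAT1: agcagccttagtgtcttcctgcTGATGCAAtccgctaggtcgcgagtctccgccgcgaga
CEBPG: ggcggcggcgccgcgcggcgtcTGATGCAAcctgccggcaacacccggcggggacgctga

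A match is a description of sequence and not of binding. The windows of CTH, CBS, ASS1, GLUL and ALDH18A1 held no match, which says only that these letters are absent there. Among the other enzymes of the lists, 1 gene, GOT1, had a match, on the antisense strand, and its log2 fold change was the -0.03 given above.

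GLUL, which joins ammonia to glutamate to give glutamine (chromosome 1, 182381704 to 182392206, minus strand), had 3599 reads in Vector against 3849 in the OE-UNC5B-labelled library. Its log2 fold change was -0.14 (-0.21 to -0.07). GPT2, which transfers the amino group of glutamate to pyruvate to make alanine in mitochondria (chromosome 16, 46884378 to 46931297, plus strand), had 913 reads in Vector against 2665 in the OE-UNC5B-labelled library. Its log2 fold change was 1.31 (1.20 to 1.42). GPT, the cytosolic enzyme for the same reaction, had 4 and 3 reads, so nearly all counted alanine aminotransferase reads were those of GPT2 in both libraries. Of the 7 other glutamine and glutamate genes with enough reads, among them GLUD1, CAD and PPAT, 0 were past 2-fold, and their median log2 fold change was 0.09.

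Proline is made from glutamate in mitochondria by ALDH18A1, which forms the intermediate pyrroline-5-carboxylate, and then by PYCR1, while PYCR3 carries out the last step in the cytosol. ALDH18A1 (chromosome 10, 95605929 to 95656706, minus strand) had 1236 reads in Vector against 1240 in the OE-UNC5B-labelled library, a log2 fold change of -0.23 (-0.35 to -0.12) once the larger library was scaled. PYCR1 (chromosome 17, 81932384 to 81942412, minus strand) had 515 and 1100 reads. Its log2 fold change was 0.86 (0.71 to 1.01), and 2-fold lay just inside the interval. PYCR3 had 344 and 179 reads and was lower by more than 2-fold, at -1.18 (-1.45 to -0.91). On the level per kilobase, PYCR1 was 68.8% of PYCR1 and PYCR3 together in Vector and 90.0% in the OE-UNC5B-labelled library. The level of PYCR1 was 2.21 times that of PYCR3 in Vector and 9.05 times in the other library. These shares and ratios depend on the length used. By deposited FPKM, PYCR1 was at 5.48 against 3.53 for PYCR3 in Vector and at 10.3 against 1.61 in the other library. ALDH4A1, which oxidises the intermediate back to glutamate, had 411 and 306 reads and a log2 fold change of -0.66 (-0.88 to -0.45). OAT, which links ornithine to the same intermediate, had 618 and 474 reads and a log2 fold change of -0.62 (-0.80 to -0.44). The proline oxidases PRODH and PRODH2 had 0 reads in both libraries. Besides ALDH18A1 and PYCR1, 3 genes of this list had enough reads, with 0 higher and 1 lower by 2-fold.

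**Figure D3:**
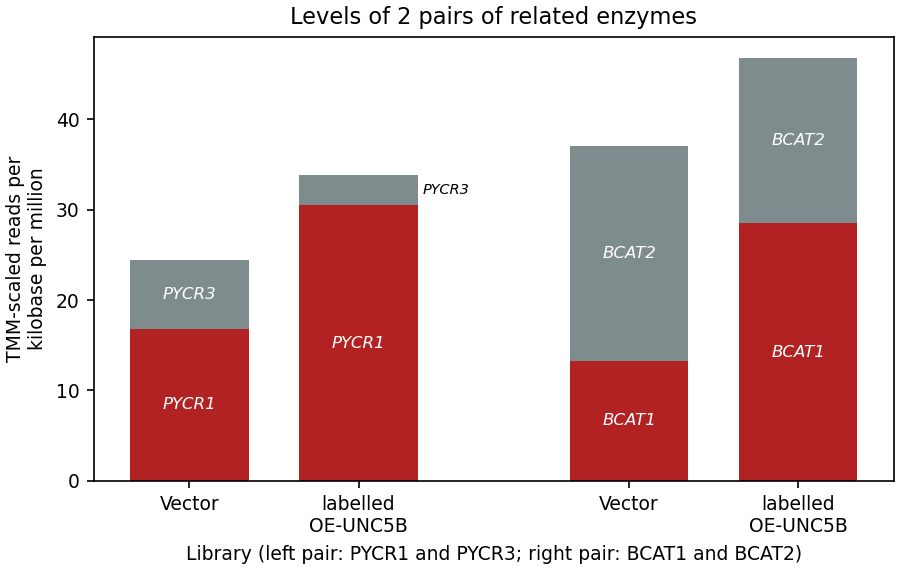
Level of PYCR1 and PYCR3 (left pair of bars) and of BCAT1 and BCAT2 (right pair) in each library, as TMM-scaled RPKM over the canonical transcript, stacked by gene. PYCR1 is at 16.8 in Vector and 30.5 in the other library, under a PYCR3 segment of 7.63 and 3.37, and BCAT1 is at 13.3 against 23.8 for BCAT2 in Vector and at 28.5 against 18.3 in the OE-UNC5B-labelled library, whereas by deposited FPKM BCAT1 is the higher in both.

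Transsulfuration carries sulfur from homocysteine to cysteine: CBS joins homocysteine and serine to cystathionine, and CTH splits cystathionine into cysteine. CTH (chromosome 1, 70411218 to 70439851, plus strand) had 148 reads in Vector against 1005 in the OE-UNC5B-labelled library. Its log2 fold change of 2.52 (2.28 to 2.79), a 5.75-fold difference, was the largest of the 9 enzymes and ranked 80 from the top of all genes. CBS (chromosome 21, 43053191 to 43076943, minus strand) had 43 and 189 reads, a log2 fold change of 1.89 (1.41 to 2.41). It had the fewest reads of the 9 and the widest interval. The CBS value is uncertain for a further reason: 96.9% of the 75-base stretches of its canonical transcript also occur in CBSL, a near-identical entry on the same chromosome to which GENCODE 44 gives the biotype artifact. CBSL had 2 and 15 reads, the first within the 3 reads that a count of 0 allows, and a log2 fold change of 2.40 with an interval from 0.57 to 5.84. Reads of the 2 entries cannot be told apart where their sequence is the same. The genes that feed this route had smaller differences. MAT2A, which makes S-adenosylmethionine, had 8685 and 12235 reads and a log2 fold change of 0.26 (0.22 to 0.30), and AHCY, which releases homocysteine, had a value of -0.13 (-0.19 to -0.08). Downstream, the glutamate-cysteine ligase subunits GCLC and GCLM had log2 fold changes of 0.34 and -0.50. CDO1, which oxidises cysteine, had 0 reads in both libraries. Of the 14 genes of this list with enough reads, besides CBS and CTH, 1 (CBSL, the entry that duplicates CBS) was higher and 0 were lower by 2-fold, and their median was -0.05.

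BCAT1 transfers the amino group of leucine, isoleucine or valine to 2-oxoglutarate in the cytosol, and BCAT2 does so in mitochondria. BCAT1 (chromosome 12, 24810022 to 24949459, minus strand) had 1674 reads in Vector against 4224 in the OE-UNC5B-labelled library, with a log2 fold change of 1.10 (1.02 to 1.18). BCAT2 had 502 and 454 reads with a log2 fold change of -0.38 (-0.57 to -0.20). By the level per kilobase, BCAT1 was 35.9% of both together in Vector and 61.0% in the other library. The order of the pair depends on the length used: by deposited FPKM, BCAT1 was above BCAT2 in both libraries (5.92 against 4.57 in Vector and 13.1 against 3.62 in the other library), and it also had more reads in both. Subunits of the keto acid dehydrogenase that acts next had log2 fold changes of -0.04 for BCKDHA, -0.10 for BCKDHB and 0.43 for DBT. Of the 8 genes of this list, 0 were past 2-fold and the median was -0.20.

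ASS1 joins citrulline and aspartate to argininosuccinate, which ASL splits to give arginine. ASS1 (chromosome 9, 130444929 to 130501274, plus strand) had the highest level per kilobase of the 9 enzymes in both libraries. By reads, GLUL was above it in Vector (3599). ASS1 had 3230 reads in Vector against 8846 in the OE-UNC5B-labelled library. Its log2 fold change was 1.22 (1.16 to 1.28). ASL had 237 and 268 reads, a log2 fold change of -0.06 (-0.32 to 0.20). The level of ASS1 per kilobase was 19.0 times that of ASL in Vector and 46.1 times in the other library. Among the genes around this step, OTC and ARG1, of the liver urea cycle, had 0 reads in both libraries, CPS1 had a log2 fold change of 0.50 and ODC1, which starts polyamine synthesis, one of -0.36. Of the 7 genes of the list with enough reads, 0 were past 2-fold.

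**Figure D4:**
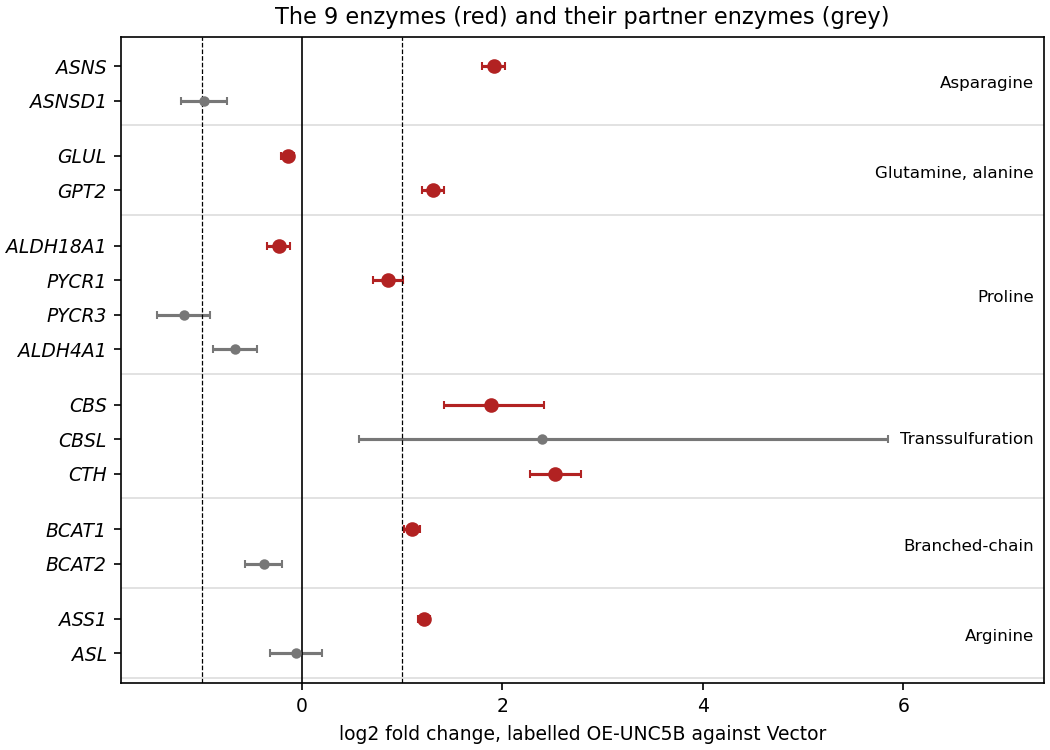
Log2 fold change of the 9 enzyme genes (red) and of the partner enzymes with at least 10 reads (grey), grouped by pathway, with exact 95% intervals of the reads; the solid line is 0 and dashed lines are 2-fold. Partners lie at or below -0.06, apart from CBSL with its long interval, while 6 of the red points lie beyond the right dashed line.

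Over the 6 lists of related enzymes together, 43 of 56 genes had enough reads, and of these 1 was higher and 1 (PYCR3) lower by 2-fold, with a median log2 fold change of -0.10. The higher one was CBSL, which shares its sequence with the member CBS and is annotated as an artifact. Among all 15384 genes, 5.15% were at least 2-fold higher and 4.79% at least 2-fold lower. Nothing is therefore read from 1 call in each direction among 43 genes. The lists were drawn up with earlier results known and do not hold every related enzyme. Among the regulators of the amino acid response, 11 of 11 genes had enough reads, with 2 higher and 0 lower by 2-fold and a median of 0.39. TRIB3, a pseudokinase that binds ATF4, had 906 and 3186 reads and a log2 fold change of 1.58 (1.47 to 1.69). CEBPB, a C/EBP transcription factor, had 187 and 557 reads and a log2 fold change of 1.34 (1.10 to 1.58). ATF4 itself had 4993 and 10509 reads and a log2 fold change of 0.84 (0.79 to 0.89), and CEBPG 1977 and 4199 reads and 0.85 (0.77 to 0.93), both under 2-fold. DDIT3, which encodes CHOP, had 82 and 164 reads and a log2 fold change of 0.76 (0.37 to 1.16). ATF3 had 49 and 76 reads and a value of 0.39 with an interval that includes 0 (-0.14 to 0.94). ATF5 had 613 and 582 reads and was on the lower side, at -0.31 (-0.48 to -0.15). The eIF2 kinases EIF2AK1, EIF2AK2, EIF2AK3 and EIF2AK4 had values between -0.35 and 0.30. Read counts do not show translation of ATF4 or phosphorylation of eIF2.

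**Figure D5:**
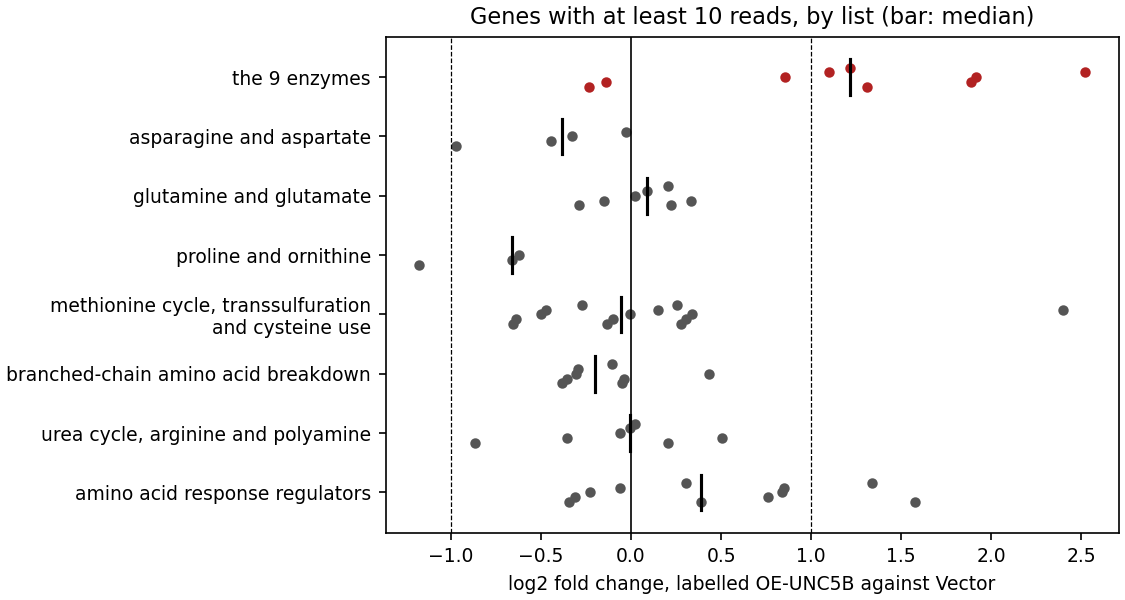
Log2 fold change of every gene with at least 10 reads in the 9 enzymes (red) and in each list of related enzymes and regulators (grey), with a bar at the median. The medians of the related enzyme lists lie between -0.66 and 0.09, that of the regulators at 0.39 and that of the 9 enzymes at 1.22.

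For the other enzymes, sharing of sequence was small or concerned genes outside the table. Of the 75-base stretches of the canonical transcripts, 0% of those of GPT2, PYCR1, ALDH18A1, CTH and BCAT1, 0.401% of those of GLUL and 1.3% of those of ASS1 occurred in another gene. For ASNS the share was 99.5%, all of it also found in an overlapping long noncoding gene of GENCODE 44 on the same strand that the expression table does not list. Pseudogenes described as copies of ASNS, GLUL or ASS1 held at most 37 reads per enzyme in either library, the 37 being those of ASS1. PYCR1 shares 14.1% of its exonic bases with MYADML2 on the same strand, which had 1 and 8 reads.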

How the data were processed

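RNA of MOLM-13 cells was sequenced from 1 Vector and 1 OE-UNC5B library, prepared with the VAHTS Universal V6 kit. The submitters' processing notes name bcl2fastq 2.19, HISAT2 2.0.4, StringTie 1.3.0 and GRCh38; which tool counted reads, with which annotation and strand setting, is not given in the sources used here. Each gene has a raw read count and an FPKM value, both as deposited by the authors. The length behind each deposited FPKM was inferred from reads and FPKM. It equalled the summed distinct exon lengths of GENCODE 44 at the median gene (ratio 1.0). Genes were therefore compared by RPKM, and deposited FPKM is given beside it where the length used matters.

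Counts were scaled with TMM factors (edgeR 4.0.16, R 4.3.3). Log2 fold changes have 0.5 reads added, and genes reaching 10 reads in sum entered the counts of genes past 2-fold. Intervals are 95% Clopper-Pearson or exact Poisson intervals (scipy 1.17.1). With 1 library per group, edgeR's quasi-likelihood test could not be fitted, and no p-value is given. The steps were run on simulated Poisson counts without variation between libraries, which cannot speak to replicate error.

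The members, lists and partner pairs were chosen with earlier results of these data known. Named are the 9 members, UNC5B, genes of a list past 2-fold, partner enzymes, and the 3 genes nearest to ASNS; other list genes, the markers and the promoter of CEBPG were named after their values were seen. A small number of list genes are not reported here and were left out of the lists, pairs and figures.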

Additional observations from a re-analysis of the deposited data

How the results depend on the processing

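No paired analysis was possible because each group had a lone library, and for that reason no library could be left out. The 9 enzymes kept the sign of their log2 fold change under library totals, DESeq2 size factors, FPKM with 0.1 or 1 added, a minimum of 50 reads, no filter, 2 reads added and, for CBS alone, its reads combined with those of CBSL. A minimum of 50 reads and no filter change only which genes are kept, so the enzymes' values there repeat the main ones. Of all 64 values, these repeats included, 61 lay within the counting interval. The 3 others came with 1 added to FPKM, which by construction shrinks low genes: ASNS 1.79, CTH 2.23 and CBS 0.74, so that CBS was no longer past 2-fold. The median over the 9 enzymes was then 1.03. At 4-fold, 1 enzyme (CTH) was higher. The counts of all genes moved more. Higher and lower genes numbered 392 and 281 with 0.1 added to FPKM and 165 and 130 with 1 added, both over genes reaching an FPKM of 1 in either library, so that unit, filter and added value differ together. They numbered 2886 and 3079 with no filter, 359 and 297 with at least 50 reads, 1989 and 1925 at 1.5-fold, and 154 and 177 at 4-fold, against 792 and 737. Depth limits CBS, with 43 reads in Vector, most.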
